A study of Homo sapiens with 2 samples.

Results

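The ATP binding cassette (ABC) genes were examined as a family in RNA-seq of TFK1, an established human cholangiocarcinoma cell line. All genes whose symbol is ABC, a subfamily letter from A to G and a number were taken, 1 row per symbol, which gave 46 of the 56638 genes measured. The gene descriptions in the deposited table name 45 of them as ATP binding cassette members, and ABCC13 has no description there. The study compared cells with a knockdown of MBD2, a protein that binds methylated CpG dinucleotides (sh-MBD2), with cells that carried a negative control (sh-NC). Both were TFK1 cells infected with lentivirus and kept under drug selection, and the labels give no other treatment for either. There was 1 library per condition, so the spread between cultures is unknown, no test was possible and no p-value is given. The labels do not say which shRNA against MBD2 the sequenced cells carried.

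ABC transporters bind and hydrolyze ATP to move substrates across membranes, and most of the human ones export from the cytosol to the outside or into an organelle. Some carry drugs, drug conjugates and bile constituents out of the cell, and are known both for bile formation in the liver and bile ducts and for resistance to chemotherapy. Others move cholesterol, phospholipids, fatty acids, heme or peptides, and the ABCE and ABCF proteins have no membrane domain and act on ribosomes and translation. The 46 members were therefore read in 5 groups: 12 drug and bile transporters, 16 lipid transporters of ABCA and ABCG, 9 transporters of mitochondria, peroxisomes and lysosomes, 4 members without a membrane domain, and 5 remaining ABCC members.

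The libraries held 14728814 counts (sh-MBD2) and 14467406 counts (sh-NC) assigned to genes. MBD2 itself had 365 counts in sh-MBD2 and 1013 in sh-NC, a log2FC of -1.48 (95% counting interval -1.66 to -1.31), so the target was lower in the library labelled as its knockdown. Here log2FC is sh-MBD2 over sh-NC after scaling. It was computed for the 17545 genes whose counts in the 2 libraries summed to at least 10, which are called measured below. In each pair of values below, sh-MBD2 comes first unless stated. Its interval covers the counting error of these 2 libraries only. All 8 markers of bile duct epithelium were measured, with KRT8 at 3006 and 3890 TPM (transcripts scaled for gene length and to the same total in each library) in sh-MBD2 and sh-NC, while all 4 endothelial markers, 5 of 6 leukocyte markers and 3 of 5 fibroblast markers had at most 3 counts per library. Of 8 hepatocyte markers 4 were measured, and their list summed to 45.0 TPM in sh-MBD2 and 144 in sh-NC. FGB, the fibrinogen beta chain, made up most of both sums and was lower in sh-MBD2, with 473 and 1569 counts. SERPINA1, alpha-1-antitrypsin, was higher, with 39 and 11 counts (log2FC 1.77, 0.82 to 2.93). CYP3A4 had 6 and 6 counts, CYP2E1 8 and 9, and ALB 3 and 0, so the hepatocyte markers did not move in 1 direction, and their part in the results below was not tested. In RNA of whole cultures, fewer cells that express a gene and less RNA per cell cannot be told apart.

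The family took 43431 counts in sh-MBD2 and 47972 in sh-NC, or 0.295% and 0.332% of the library. Of the 46 members, 35 were measured, 7 had reads below the filter and 4 (ABCA9, ABCC13, ABCD2 and ABCG8) had none in either library. A library with 0 counts allows up to 3, the usual floor for a count of 0, so these 4 were not detectable at this depth. Counts below the filter were 4 in sh-MBD2 and 3 in sh-NC for ABCA4, 1 and 1 for ABCA6, 1 and 5 for ABCA13, 2 and 0 for ABCB11, 5 and 2 for ABCC11, 4 and 2 for ABCC12, and 0 and 1 for ABCG5. ABCB11, the canalicular bile salt export pump of hepatocytes, was thus hardly present in these bile duct cells. At 1 TPM or more stood 29 members in each library, and at 100 TPM or more 3 members in each.

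The 3 most abundant members were the same in both libraries, and all are drug and bile transporters. ABCC2 (MRP2), the apical pump for conjugated bilirubin and drug conjugates, was at 317 TPM in sh-MBD2 and 388 in sh-NC. ABCC3 (MRP3), its basolateral counterpart, was at 308 and 374, and ABCC1 (MRP1), a broad exporter of glutathione conjugates, at 183 and 181. The drug and bile group made up 62.9% of the family's TPM in sh-MBD2 and 67.8% in sh-NC. By contrast ABCB1, the drug pump the study followed, was at 2.18 and 6.80 TPM, below the median of 9.87 and 13.2 TPM of the measured members.

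**Figure D1:**
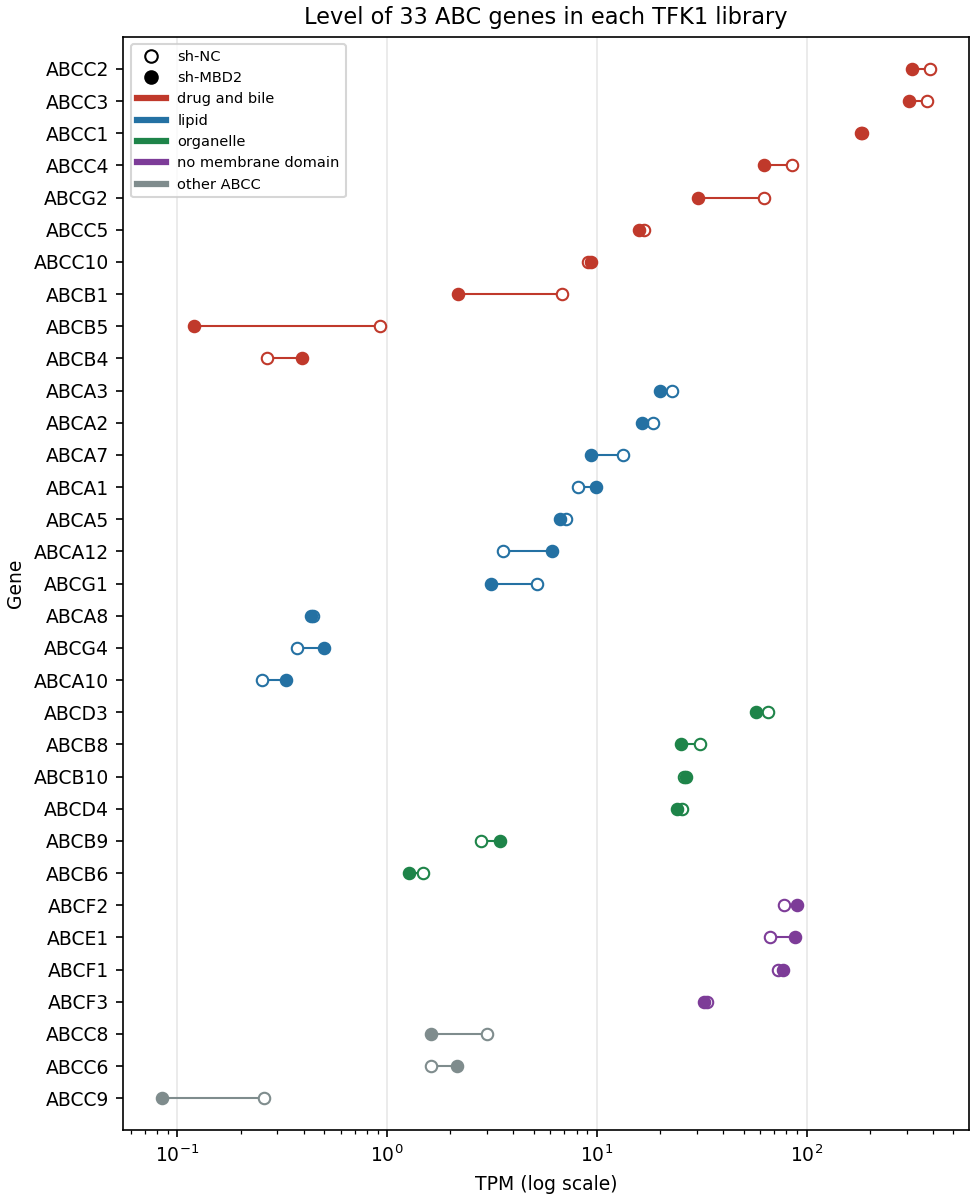
Level of 33 of the 35 measured ABC genes in TPM on a logarithmic axis, with sh-NC as open and sh-MBD2 as filled circles, 1 library each, colored by functional group. ABCC2, ABCC3 and ABCC1 lie above 100 TPM in both libraries, and the widest gaps among the red genes are those of ABCB5, ABCB1 and ABCG2.

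The DNA in front of the genes is given for 3 transporters on which the comparison turns. MBD2 binds CpG dinucleotides when they are methylated, and these are printed in capitals in the 250 bases before an annotated start, 5′ to 3′ on the gene's strand (RefSeq, GRCh38.p14). ABCB1 on chromosome 7 has an upstream start, whose window holds 1 CpG, and a downstream start, whose window holds 12. ABCC2 on chromosome 10 has 1 start with 1 CpG in its window. ABCG2 on chromosome 4 has 5 starts, and the windows of its lowest and highest CpG number, 2 and 32, are shown.
ABCB1 upstream start, chr7:87713296-87713545, minus strand: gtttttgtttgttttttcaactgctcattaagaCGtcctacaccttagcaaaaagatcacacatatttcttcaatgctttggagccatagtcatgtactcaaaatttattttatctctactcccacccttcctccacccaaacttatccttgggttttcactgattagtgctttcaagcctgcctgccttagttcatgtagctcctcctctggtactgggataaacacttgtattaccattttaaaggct
ABCB1 downstream start, chr7:87600885-87601134, minus strand: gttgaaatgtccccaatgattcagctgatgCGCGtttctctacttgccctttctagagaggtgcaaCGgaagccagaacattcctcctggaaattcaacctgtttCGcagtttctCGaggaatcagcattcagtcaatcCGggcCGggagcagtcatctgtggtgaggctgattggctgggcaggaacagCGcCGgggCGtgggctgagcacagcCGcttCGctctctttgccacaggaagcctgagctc
ABCC2, chr10:99782390-99782639, plus strand: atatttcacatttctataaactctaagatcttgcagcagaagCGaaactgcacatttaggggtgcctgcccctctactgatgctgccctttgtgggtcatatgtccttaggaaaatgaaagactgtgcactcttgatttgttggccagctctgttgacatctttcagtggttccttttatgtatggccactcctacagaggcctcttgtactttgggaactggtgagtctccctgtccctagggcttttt
ABCG2 farthest start, chr4:88231627-88231876, minus strand: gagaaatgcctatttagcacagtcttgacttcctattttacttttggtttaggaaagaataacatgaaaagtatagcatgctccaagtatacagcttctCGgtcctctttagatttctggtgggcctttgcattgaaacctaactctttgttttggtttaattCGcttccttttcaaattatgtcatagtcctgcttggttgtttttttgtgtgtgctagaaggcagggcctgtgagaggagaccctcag
ABCG2 nearest start, chr4:88158640-88158889, minus strand: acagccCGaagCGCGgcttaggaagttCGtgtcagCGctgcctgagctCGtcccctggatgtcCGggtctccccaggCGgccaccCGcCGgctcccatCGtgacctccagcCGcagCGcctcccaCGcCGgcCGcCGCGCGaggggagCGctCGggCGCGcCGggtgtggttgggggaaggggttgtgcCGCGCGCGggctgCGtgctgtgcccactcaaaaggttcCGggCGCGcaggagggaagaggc

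The downstream ABCB1 window holds primers of the study. The ABCB1 primer pair P1 for ChIP-qPCR matches bases 19 to 38 and, on the other strand, bases 72 to 91 of that window, counted from its 5′ end. Among 35116 windows of this length in front of annotated starts, 93.9% hold at least 1 CpG (CG, the same on both strands), with a median of 11 and quartiles of 3 and 23. Windows were found for 35 of the 46 members, 53 windows in all, with a median of 16. Windows poor and rich in CpG both occurred in front of genes that were lower in sh-MBD2. ABCC2, with 1 CpG, had 9621 counts in sh-MBD2 and 11480 in sh-NC, and ABCC4, with 42, had 2083 and 2750. Members with at most 3 CpG in every window numbered 7. Of these 3 were measured, with a log2FC of 0.39 (ABCA10), 0.81 (ABCA12) and -0.26 (ABCC2). Their median of 0.39 is the value of ABCA10, which had 12 and 9 counts and an interval of -0.96 to 1.83. Of the 28 others 23 were measured with a median of -0.05, and no contrast is drawn between these medians. Methylation was not measured in these libraries.

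Among the multidrug pumps of ABCB and ABCG, ABCB1, ABCB5 and ABCG2 were all lower in sh-MBD2. ABCB1 (MDR1, P-glycoprotein) expels a wide range of lipophilic drugs, and had 58 counts in sh-MBD2 and 176 in sh-NC. Its log2FC was -1.60 (95% counting interval -2.06 to -1.17), which left 32.9% of the sh-NC level. ABCG2 (BCRP), which exports drugs, urate and sulfate conjugates, had 775 and 1560 counts, or 30.3 and 62.5 TPM. Its log2FC of -1.02 (-1.14 to -0.89) rests on many more reads than that of ABCB1. ABCB5, a relative of ABCB1 known from melanoma and stem cells, had 4 and 30 counts and a log2FC of -2.77 (-4.88 to -1.41), at levels of 0.120 and 0.926 TPM. With so few reads the size of the ABCB5 difference depends on the scale, and with log2 of TPM plus 1 it was -0.78. ABCB4 (MDR3), which brings phosphatidylcholine into bile and lies 23.4 kb from ABCB1 in the deposited coordinates, had only 9 and 6 counts. The ABCB4 interval ran from -1.08 to 2.35, so its direction was not detectable at this depth.

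The ABCC exporters split. ABCC2, ABCC3 and ABCC4 were lower in sh-MBD2, ABCC4 more so than the other 2, whereas the intervals of ABCC1, ABCC5 and ABCC10 held 0. ABCC2 had a log2FC of -0.26 (-0.30 to -0.22). ABCC3 had 10054 counts in sh-MBD2 and 11929 in sh-NC, with a log2FC of -0.26 (-0.29 to -0.22). ABCC4 (MRP4), which exports cyclic nucleotides, nucleoside analogs and bile acids, stood at 62.4 and 84.5 TPM, with a log2FC of -0.41 (-0.49 to -0.33). The interval of ABCC1, with 6906 and 6659 counts, was -0.01 to 0.09. ABCC5 (MRP5), another exporter of cyclic nucleotides and nucleoside analogs, had 535 and 552 counts (-0.23 to 0.12), and ABCC10 (MRP7), a taxane exporter, 273 and 258 (-0.18 to 0.32).

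Set against ABCC1 in the same library, which needs no scaling between libraries, ABCB1, ABCG2, ABCC2, ABCC3 and ABCC4 were lower in sh-MBD2. These ratios reuse the counts given above, and ABCC1 differed little between libraries. They therefore restate those differences and add no separate support. Counts also depend on gene length, so these shares are read between libraries and not between genes. ABCG2 counts were 11.2% of those of ABCC1 in sh-MBD2 and 23.4% in sh-NC. For ABCC4 the shares were 30.2% and 41.3%, for ABCC2 139% and 172%, and for ABCC3 146% and 179%. ABCB1 counts were 0.840% and 2.64% of those of ABCC1. Relative to ABCG2, ABCB1 counts were 7.48% in sh-MBD2 and 11.3% in sh-NC, so of this pair ABCB1 had the larger difference (log2 of the ratio -0.59, 95% counting interval -1.04 to -0.15).

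Over the whole drug and bile group, 10 of 12 members were measured, 3 higher and 7 lower in sh-MBD2. Of all 17545 measured genes, 8582 were higher and 8963 lower. The median log2FC of the group was -0.26, beside -0.05 for the family and -0.01 for all measured genes, and without ABCB1 it was still -0.26. The interval lay below 0 for 6 members (ABCB1, ABCB5, ABCC2, ABCC3, ABCC4 and ABCG2) and above 0 for none. Over all measured genes it lay below 0 for 3237 and above 0 for 3450. Summed over the group, TPM was 928 in sh-MBD2 and 1124 in sh-NC, so 82.6% of the sh-NC level was left. When members with any count at all were kept, ABCB11 and ABCC11 entered with counts higher in sh-MBD2 and the median of the group was -0.15.

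The lipid transporters moved in both directions, with a median log2FC of -0.04 over the 10 of 16 that were measured, 4 higher and 6 lower. The highest log2FC of the family was that of ABCA12, the keratinocyte transporter of glucosylceramides, with 319 counts in sh-MBD2 and 180 in sh-NC and a log2FC of 0.81 (0.55 to 1.09). ABCA1, which loads cholesterol and phospholipid onto apolipoprotein A-I, was also higher, with 592 and 477 counts (log2FC 0.30, 0.13 to 0.48). ABCG1, which passes cholesterol to mature high-density lipoprotein, was lower, with 62 and 100 counts (-0.69, -1.18 to -0.23). The count ratio of ABCA1 to ABCG1 was 955% in sh-MBD2 and 477% in sh-NC. Both are textbook targets of the same liver X receptors, NR1H3 and NR1H2. NR1H3 had 291 counts in sh-MBD2 and 195 in sh-NC (log2FC 0.57, 0.30 to 0.84), and NR1H2 had 1073 and 1340 (-0.33, -0.45 to -0.21). The part of these receptors was not tested.

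ABCA3, the surfactant lipid transporter of lung, was the most abundant of the lipid group, at 22.7 TPM in sh-NC, and had 757 and 835 counts with a log2FC of -0.15 (-0.29 to -0.01). ABCA2, an endolysosomal lipid transporter of brain, had 761 and 841 counts and the same log2FC of -0.15 (-0.30 to -0.01). ABCA7, a relative of ABCA1 linked to Alzheimer disease, had 366 and 503 counts and a log2FC of -0.47 (-0.67 to -0.27). In TPM, ABCA7 stood at 9.39 and ABCA1 at 9.87 in sh-MBD2, and at 13.2 and 8.16 in sh-NC, so the order of these relatives differed between libraries. The remaining measured members were ABCA5 (314 and 327 counts), ABCA8 (14 and 14), ABCA10 (12 and 9) and ABCG4 (11 and 8), and all of their intervals held 0. Summed TPM of the lipid group was 72.9 in sh-MBD2 and 79.7 in sh-NC.

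The organelle transporters had log2FC values from -0.27 to 0.33, with a median of -0.07 over 8 of 9 members. ABCD3 (PMP70), the peroxisomal carrier of branched-chain and dicarboxylic acyl-CoA, was the most abundant at 57.5 TPM in sh-MBD2 and 65.3 in sh-NC, with a log2FC of -0.16 (-0.26 to -0.05). ABCB8, part of a mitochondrial potassium channel, was at 25.1 and 30.8 TPM (-0.27, -0.42 to -0.12). Of this group ABCD3 and ABCB8 alone had intervals that left out 0. ABCB10, an inner mitochondrial membrane protein of red cell development, had 586 and 559 counts, and ABCD4, the lysosomal vitamin B12 transporter, 415 and 424. ABCB9, a lysosomal peptide transporter, had 119 and 94 counts, and ABCB6, a porphyrin transporter, 22 and 25. ABCB6 overlaps ATG9A on its own strand, which had 755 and 950 counts, so the reads of ABCB6 are uncertain.

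Drug and bile transporters thus had a median log2FC that was lower by 0.21 than that of lipid and organelle transporters together (-0.26 over 10 members and -0.05 over 18). With the members of both groups moved to opposite ends of their counting intervals, this difference of medians lay between -0.59 and 0.07, a range that holds 0. With at least 1 count as the filter it was -0.10. In summed TPM the first group was left at 82.6% of sh-NC and the second at 91.8%. Intervals below 0 were found for 6 of the 10 and for 6 of the 18, beside 3237 of all 17545 measured genes. This count also depends on depth, since the drug and bile group holds the most abundant members. Members of a group are not replicates, so this difference is a description of 1 pair of libraries.

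**Figure D2:**
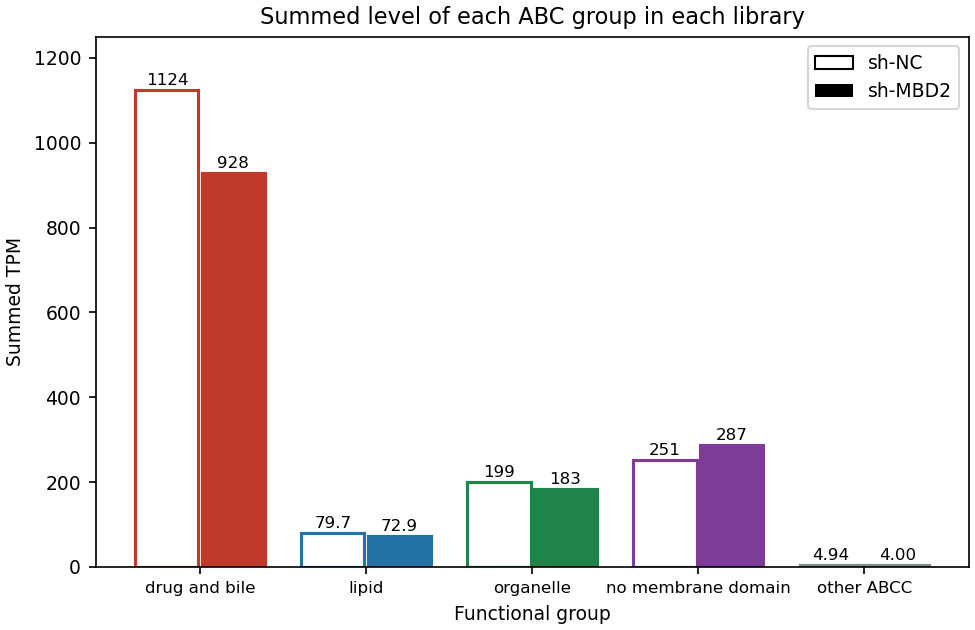
Summed TPM of each functional group of ABC genes, with sh-NC as open and sh-MBD2 as filled bars from 0, 1 library each. The drug and bile bar is 1124 in sh-NC and 928 in sh-MBD2, and only the members without a membrane domain have a taller bar in sh-MBD2, 287 against 251.

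The members without a membrane domain were the only functional group with a median above 0 (0.17 over 4 members). ABCE1, the ATPase that splits ribosomes after termination, had 1971 counts in sh-MBD2 and 1460 in sh-NC and a log2FC of 0.42 (0.33 to 0.52). ABCF2 had 1826 and 1533 counts and a log2FC of 0.24 (0.14 to 0.34). ABCF1, which takes part in translation initiation, had 1527 and 1421 counts and a log2FC of 0.09 (-0.01 to 0.20). ABCF3, with 525 and 530 counts, had an interval of -0.20 to 0.15. ABCE1 overlaps OTUD4 on the other strand, which had 1481 and 1174 counts, and ABCF3 overlaps EIF2B5 on its own strand, with 737 and 643. Whether counting used strand is not stated, so reads shared by ABCE1 and OTUD4 cannot be assigned with certainty.

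The remaining ABCC members were scarce. ABCC8 (SUR1), the sulfonylurea receptor of pancreatic beta cells, had 46 counts in sh-MBD2 and 83 in sh-NC and a log2FC of -0.85 (-1.41 to -0.32). ABCC9 (SUR2), its counterpart in heart and vessels, had 4 and 12 counts and a log2FC of -1.48 with an interval from -3.68 to 0.13. ABCC6, lost in pseudoxanthoma elasticum, had 71 and 52 counts (-0.10 to 0.99). ABCC6 lies 5.85 kb from ABCC1 in the deposited coordinates and has near-identical pseudogenes. ABCC6P1 had 8 and 0 counts and ABCC6P2 had 4 and 6, so the reads of ABCC6 are uncertain.

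By subfamily, the median log2FC was -0.04 for ABCA (8 of 12 members measured), -0.15 for ABCB (8 of 9), -0.26 for ABCC (9 of 12) and -0.04 for ABCD (3 of 4). It was 0.42 for ABCE (the single member), 0.09 for ABCF (3 of 3) and -0.69 for ABCG (3 of 5). In summed TPM, ABCG stood at 33.9 in sh-MBD2 and 68.1 in sh-NC, or 49.8% of the sh-NC level, and ABCG2 made up most of that sum. The ABCC median depends on the filter, at -0.05 with at least 1 count and -0.15 with at least 100. ABCC carried 61.0% of the family's TPM in sh-MBD2 and 63.8% in sh-NC.

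The members' log2FC values were counted beside those of all measured genes. No member of 35 had a log2FC above 1, a line that 5.48% of the 17545 measured genes passed. Below -1 lay 4 members (ABCB1, ABCB5, ABCC9 and ABCG2), or 11.4%, beside 5.07% of all measured genes. Above 0.5 lay ABCA12 and ABCB4, 5.71% of members and 12.8% of genes, and below -0.5 lay 6 members, adding ABCC8 and ABCG1, 17.1% and 13.2%. The last pair of shares is close together, so the count below -0.5 is near the background. Intervals were below 0 for 13 members, above 0 for 4 and held 0 for 18. Over all 17545 measured genes they were below 0 for 3237, above 0 for 3450 and held 0 for 10858. Such counts also depend on depth.

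The same count was made where reads were many. A mean of at least 1000 counts over both libraries was reached by 3263 genes and 9 members. Below -0.25 lay 4 of these 9 (ABCC2, ABCC3, ABCC4 and ABCG2), 44.4% beside 11.3% of such genes, and above 0.25 lay ABCE1 alone, 11.1% beside 12.1%. ABCG2 was the single one of the 9 below -1, a line that 0.368% of such genes passed. These lines and the filter on the mean were chosen with the values known. ABCC3 at -0.256 and ABCC2 at -0.264 lay close to the line of -0.25. With DESeq2 size factors ABCC3 was at -0.247 and no longer below it, so the share of members depends on the line and the scaling.

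**Figure D3:**
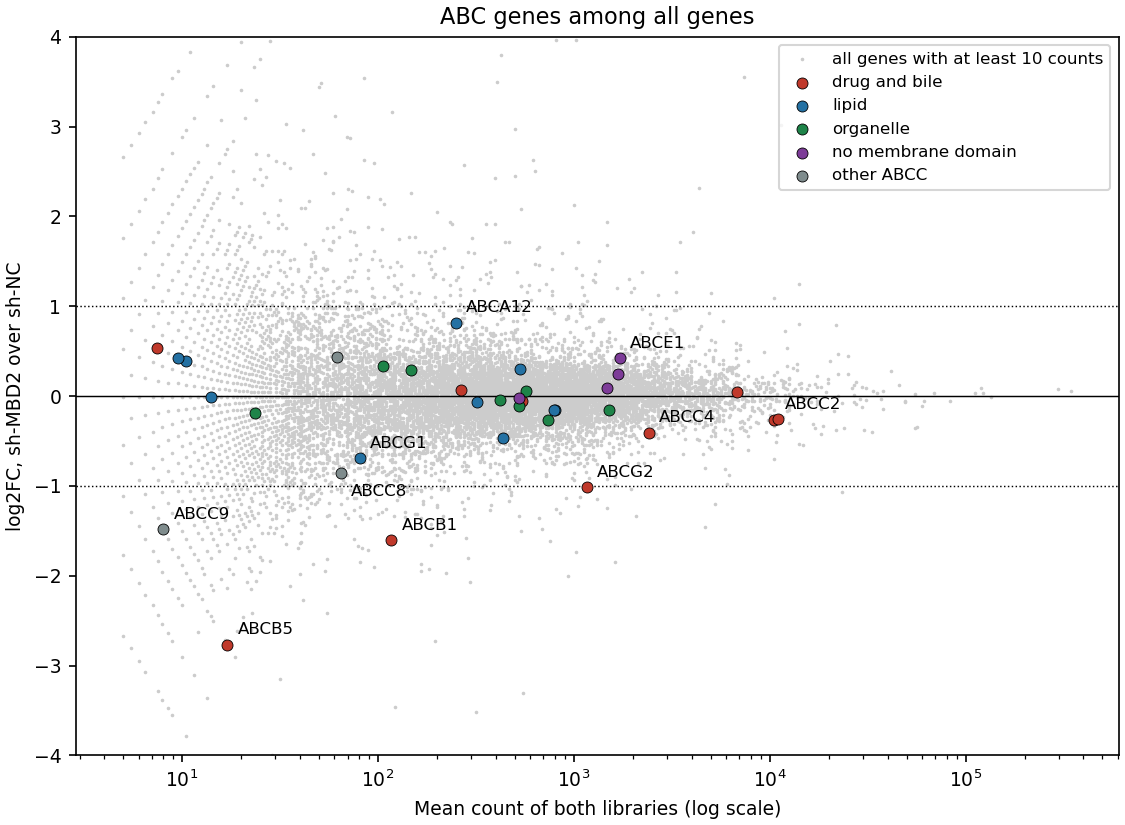
Log2FC against the mean count of both libraries (logarithmic axis) for all 17545 measured genes in gray, of which 77 lie outside the axis, and for the 35 ABC genes in color. ABCG2, ABCC2 and ABCC4 lie below 0 where the gray points are densest around 0, while ABCB5 and ABCC9 lie where few reads spread all genes widely.

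ABC proteins named otherwise were read beside the family. TAP1 and TAP2, the subunits of the peptide transporter that feeds antigen presentation, were both higher in sh-MBD2. TAP1 had 490 counts in sh-MBD2 and 386 in sh-NC (log2FC 0.33, 0.14 to 0.53), and TAP2 had 712 and 480 (0.56, 0.39 to 0.73). CFTR, the chloride channel of bile duct epithelium, had 6 and 11 counts, with an interval that held 0.

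Among 27 transcription factors and cofactors known to control ABC genes, 25 were measured, with a median log2FC of -0.02. Of these 1 lay above 1 and 2 below -1, and 4 lay above 0.5 and 5 below -0.5. Over all measured genes the shares were 5.48% above 1, 5.07% below -1, 12.8% above 0.5 and 13.2% below -0.5. No contrast with these shares is drawn from 25 genes. VDR, the vitamin D receptor, had 166 counts in sh-MBD2 and 27 in sh-NC (log2FC 2.59, 2.02 to 3.26). HNF4A, a factor of hepatic differentiation, had 309 and 631 (-1.04, -1.24 to -0.84). NR1I3 (CAR), a xenobiotic receptor, had 3 and 12 counts. The most abundant were YBX1 (log2FC 0.09) and the glucocorticoid receptor NR3C1 (0.00).

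The proteins that hold pumps at the apical membrane moved in both directions, with log2FC values from -1.85 to 0.17 over 7 genes. Their median of -0.44 is the value of EZR. Of these genes 0 lay above 0.5 and 2 below -0.5, beside 12.8% and 13.2% of all measured genes. PDZK1, a scaffold that binds the tails of apical transporters, had 35 counts in sh-MBD2 and 127 in sh-NC (-1.85, -2.45 to -1.32), and was the single one below -1. MSN had 9244 and 8198 counts (0.16, 0.12 to 0.21), and EZR, ezrin, 4430 and 5959 (-0.44, -0.49 to -0.38). Of 10 partners and suppliers of ABC proteins, 9 were measured, with a median of 0.38 and none past 1 or -1. Over all measured genes 5.48% lay above 1 and 5.07% below -1. LIPA, lysosomal acid lipase, had 1291 and 1417 counts, and NPC2, which moves cholesterol out of lysosomes, 626 and 479.

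The pathway names in the deposited table, read after the values were known, place 9 members in bile secretion, of which 6 were measured with a median log2FC of -0.34. The 62 other genes of that pathway had a median of -0.02 over 42 measured, 17 higher and 25 lower, with 2 above 1 and 4 below -1. Antifolate resistance holds 6 members (ABCC1 to ABCC5 and ABCG2), with a median of -0.26, and 23 other genes, of which 20 were measured with a median of 0.12, 5 above 1 and none below -1. Over all measured genes 5.48% lay above 1 and 5.07% below -1, and no contrast is drawn from these short lists. Peroxisome holds 4 members, 3 measured with a median of -0.04, and 70 other genes with a median of 0.00 over 67 measured.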

How the data were processed

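RNA of TFK1 cells was sequenced with 1 library per condition. The authors deposited whole-number read counts per gene and TPM per gene. The submitters' processing notes name fastp, HISAT2 2.1.0, featureCounts, DESeq 1.18.1 and GRCh38.p13, without roles, and the strand setting is not given in the sources used here. Deposited gene coordinates do not match GRCh38, so they were used for distances and overlaps only. Of 63723 lines, 46 without a gene were dropped. Rows alike in symbol, counts and TPM were then reduced to 1, which left 56638 rows, called genes here. A symbol whose rows differed in value would keep more than 1 row. The 46 members had 54 rows before this step and 1 row per symbol after it.

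Counts were scaled with TMM factors of edgeR 4.0.16 (R 4.3.3). To each count a library-size-scaled prior of 0.5 was added before log2FC was taken, and genes under 10 counts in total were left out. The 95% intervals of log2FC are exact Clopper-Pearson limits on how a gene's reads split between libraries (scipy 1.17.1). The interval of the ratio of ABCB1 to ABCG2 is instead a normal approximation on the log scale. It uses the counts of both genes in both libraries. All of these intervals cover counting error only, because there was 1 library per condition. They also take each read as independent. Reads without molecular identifiers are not independent molecules, so the limits can be too narrow even for counting error. Calculations were tested on simulated data. Levels between genes were compared in TPM only. With 1 library per condition no test was possible.

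The members, groups, lists and lines were chosen with earlier results of these data known. Members with any count could be named with counts. Full values were given for measured members past 0.5 or -0.5, the 3 most abundant per group and the drug pumps, and for other lists the genes past 1 or -1 and the 2 most abundant. Exceptions, chosen after their values were seen, are ABCA1, CFTR, NR1H3, NR1H2, FGB, SERPINA1, CYP3A4, CYP2E1, ALB, OTUD4, EIF2B5, ATG9A and the ABCC6 pseudogenes. Promoter windows came from RefSeq (GRCh38.p14). Alternatives were upper-quartile factors, DESeq2 1.42.0 size factors, scaling to total counts, log2 of TPM plus 1 or 0.1, priors of 2 and 0.1, filters of 1 and 100 counts, other group borders, and summed TMM-scaled CPM. No sample was left out. Single values of 2 measured members are not reported here.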

Additional observations from a re-analysis of the deposited data

How the results depend on the processing

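No paired analysis was possible because there was 1 library per condition. No result reversed under any alternative, and the other scalings shifted every log2FC by -0.02 to 0.01. Of the 35 members, 1 lay above 0.5 with log2 of TPM plus 0.1, with log2 of TPM plus 1 or with a prior of 2, and 2 lay below -1 with log2 of TPM plus 1. At least 100 counts left 28 members, 1 above 0.5 and 2 below -1. At least 1 count let in 42 members, 5 above 0.5 and 2 above 1. ABCB5 was the single gene among the members that moved beyond its interval, to -0.78 with log2 of TPM plus 1. Over all genes, 374 lay above 1 and 340 below -1 with log2 of TPM plus 1, 4523 and 4303 with at least 1 count, and 213 and 127 with at least 100. Above 0.5 lay 1409 genes with log2 of TPM plus 1. With at least 1 count 6360 lay above 0.5 and 6286 below -0.5, and with at least 100 counts 763 and 712. The filters change the number of genes counted by construction, and the pseudocounts shrink low genes. The median of drug and bile transporters was -0.15 with at least 1 count. With summed TMM-scaled CPM the log2 ratio was -0.23 for drug and bile and -0.049 for lipid transporters (-0.28 and -0.13 with TPM). By construction these sums differ from those of TPM in the scaling between libraries and in not being divided by gene length. How much each of these contributes was not tested. The difference between the medians of drug and bile and of lipid and organelle transporters ran from -0.24 to -0.10. The value of -0.24 came from groups built from the deposited pathway names, an alternative chosen after seeing the data. Depth limits scarce members such as ABCC6, whose interval at 71 and 52 counts was -0.10 to 0.99.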
